A study of Mus musculus with 8 samples.

Results

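The Ifi200 genes are a family of interferon-inducible paralogs that lie side by side on mouse chromosome 1, and 9 of them are described here: Aim2, Ifi206, Ifi213, Ifi209, Ifi208, Ifi207, Ifi204, Ifi203 and Ifi202b. A gene was measured where the array's annotation gave a probe set to its symbol alone, older synonyms included. That held for 8 of the 9 genes, with 1 probe set each, of 19937 genes with a probe set of their own. Ifi204 had only a probe set that it shares with Ifi211, so it has no value. The family was taken up with the level of Ifi208 in these same groups already known, so the contrasts of its members are given as a description and support nothing by themselves.

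Total RNA of B cells, sorted from the spleen as positive for both CD22 and B220, was profiled on Mouse Gene 1.0 ST arrays of Affymetrix. There were 4 arrays from adult mice carrying HGAL (GCET2), a human germinal centre B cell gene, under the Sca1 (Ly-6E.1) promoter, and 4 from wild-type littermates. The mice of both groups were CBAxC57BL/6J, and the labels do not say which parental copy of chromosome 1 a mouse carried. The construct is called a transgene in one place of the labels and a knock-in in another, and Sca1 is a surface protein of blood stem and progenitor cells and of lymphocytes. The labels do not say that the 4 arrays of a group came from separate mice. The wild-type arrays differ in Xist and Y-linked levels, so they are not all repeats of 1 RNA sample, but how far the spread between arrays in either group is technical is not known. Arrays give no counts, and their number limits the precision.

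Ifi200 proteins, also called PYHIN proteins, combine a pyrin domain, which binds other pyrin domains, with a HIN domain, which binds DNA, although some members have lost one of them. Aim2 senses DNA in the cytosol and assembles an inflammasome through the adaptor Pycard and the protease Casp1, while other members bind DNA in the nucleus and act on transcription, cell growth and the interferon response. Most of the genes are transcribed in response to interferon, and the locus differs in gene content and expression between inbred mouse strains.

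The paralogs differ in how alike their start regions are, so 80 bases are shown for 7 of them, from the mouse RefSeq promoters of build GRCm38.p6. Capitals mark GAAA followed, after any pair of bases, by another GAAA, the core of the element through which interferon-activated factors bind. Aim2 and Ifi209, which hold no match, are shown by the 80 bases just before the gene start. Their stretches are thus not aligned with the others. Near its start the Ifi209 stretch holds taaatcgaaa, which would match but for its opening base. The bases upstream of it, not shown, read much as those of Ifi214, but this likeness was not counted. The first 3 stretches are from the members with the largest negative differences.
Ifi206: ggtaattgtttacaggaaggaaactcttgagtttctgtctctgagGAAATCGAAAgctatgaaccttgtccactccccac
Ifi208: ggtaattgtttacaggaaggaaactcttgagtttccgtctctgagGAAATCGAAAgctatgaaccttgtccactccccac
Ifi213: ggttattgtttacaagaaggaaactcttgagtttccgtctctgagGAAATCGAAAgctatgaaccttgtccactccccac
Ifi209: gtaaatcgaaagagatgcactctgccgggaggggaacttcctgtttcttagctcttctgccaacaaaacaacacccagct
Ifi207: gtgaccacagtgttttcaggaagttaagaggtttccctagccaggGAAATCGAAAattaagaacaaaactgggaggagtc
Ifi214: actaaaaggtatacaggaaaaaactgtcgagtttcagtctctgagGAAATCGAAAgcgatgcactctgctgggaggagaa
Aim2: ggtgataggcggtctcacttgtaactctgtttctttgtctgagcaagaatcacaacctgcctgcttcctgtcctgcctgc

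On GRCm38.p6 these stretches are chr1:173491324-173491403 for Ifi206, chr1:173599311-173599390 for Ifi213, chr1:173741816-173741895 for Ifi207 and chr1:173536002-173536081 for Ifi214, all on the minus strand. They are chr1:173673562-173673641 for Ifi208, chr1:173630779-173630858 for Ifi209 and chr1:173420524-173420603 for Aim2, all on the plus strand. Stretches placed around the motif were compared position by position with no gaps, so an inserted or lost base lowers a count. The stretches of Ifi206 and Ifi208 were identical at 79 of 80 bases (98.8%), those of Ifi208 and Ifi213 at 78 (97.5%) and those of Ifi206 and Ifi213 at 77 (96.2%). Ifi207 matched each of the 3 at 34 or 35 bases (42.5% to 43.8%). It matched Ifi205 at 69 bases (86.2%) and Ifi211 at 68 (85.0%), so that its start region groups with those of other paralogs. Ifi214 matched Ifi206, Ifi208 and Ifi213 at 49 bases each (61.2%). Ifi203, which also had a negative difference, matched these 3 at 44 or 45 bases (55.0% to 56.2%) around the motif of one of its promoters. It matched Mndal at 80 of 80. By this count, near-identical start regions do not take in all members with a negative difference.

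The window searched ran from 250 bases before to 50 after each gene start, on both strands. The spaced GAAA motif was in the window of 5 of the 8 members with a promoter in the RefSeq table: Ifi203 (in one of its promoters), Ifi206, Ifi207, Ifi208 and Ifi213. It was also in all 4 other family genes with a promoter there, Mndal, Ifi211, Ifi205 and Ifi214, against 1079 of the 27025 genes in the table (3.99%), or 1131 of 32851 promoters (3.44%). The matches of the members began 35 to 73 bases before the gene start and read the same in all 5 genes. A second motif, TTCNNNGAA, the site of STAT factors, was found among the members only in Ifi202b, which holds no spaced GAAA motif, against 9.55% of all genes and 8.3% of all promoters. Of the 5 members with a negative difference, 4 held the spaced GAAA motif and Ifi209 did not, and of the 3 with a positive difference, Ifi207 held it and Aim2 and Ifi202b did not. A match describes these letters and shows no binding.

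The family did not move as 1 block. Ifi206, Ifi213, Ifi208 and Ifi209 lay lower on every Sca1-HGAL array than on every wild-type array, Ifi203 lay lower apart from replicate 3, Ifi207 had a positive difference, and Aim2 and Ifi202b differed by 0.34 or less. Levels are log2 intensities, differences are Sca1-HGAL minus wild-type on that scale, and levels of separate probe sets are not compared, apart from the rank by mean level that chose some of the genes named. No member passed the threshold of limma, an adjusted p under 0.05 over 21640 probe sets, which 1 probe set (0.00462%) passed. Cells of a sorted population were measured in bulk, so fewer cells with a transcript and less of it per cell cannot be told apart.

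**Figure D1:**
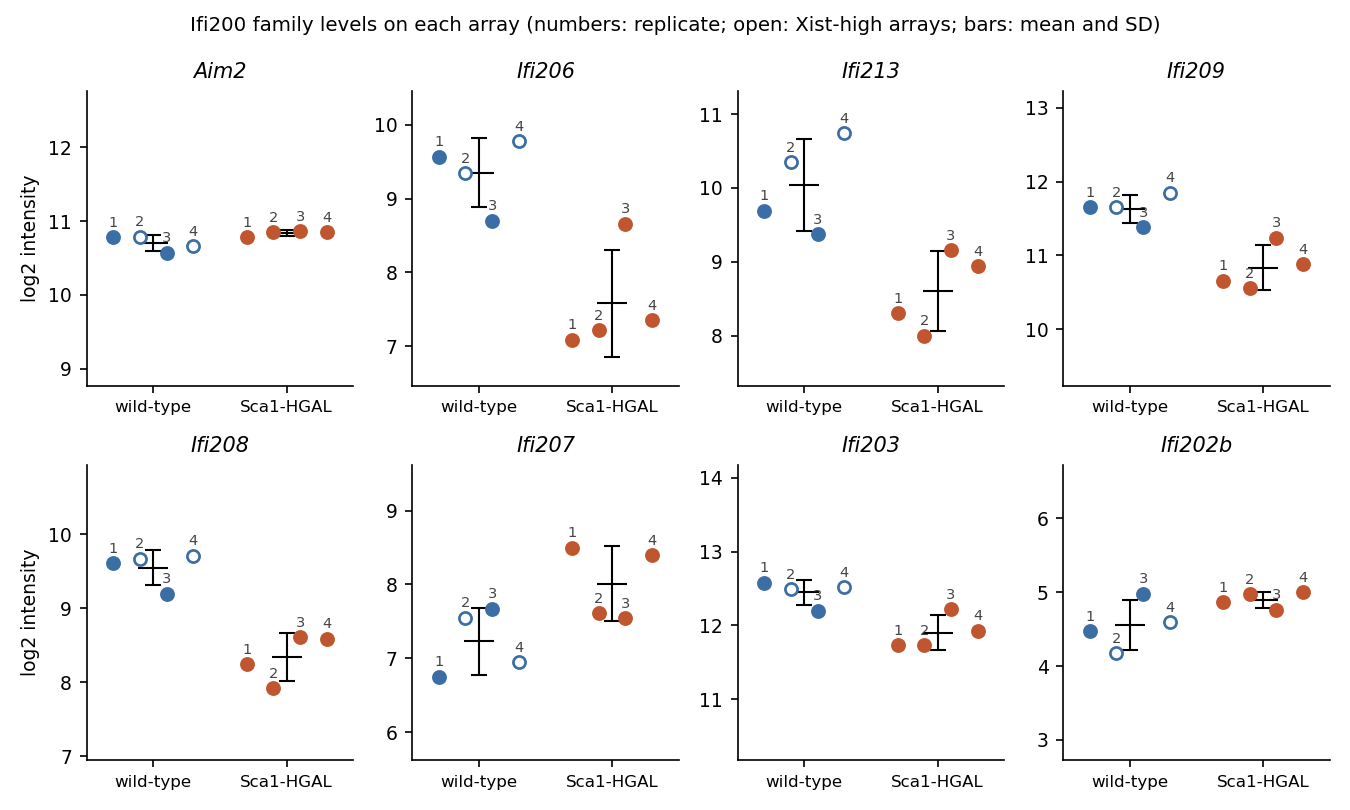
Log2 intensity (vertical axis) of the 8 measured Ifi200 genes on each array, in chromosome order, wild-type in blue and Sca1-HGAL in orange, with the replicate number above each point. Every panel spans 4 log2 units, bars are mean and SD of 4 arrays, and open points are the 2 wild-type arrays with high Xist; the groups do not overlap for Ifi206, Ifi213, Ifi209 and Ifi208.

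Ifi206 (probe set 10360367) had the largest difference of the family. Its levels were 9.57, 9.34, 8.70 and 9.78 on wild-type arrays 1 to 4 and 7.09, 7.22, 8.66 and 7.35 on Sca1-HGAL arrays 1 to 4. Sca1-HGAL replicate 3 lay just under the lowest wild-type array, 0.04 below it, and far above the other Sca1-HGAL arrays. The means were 9.35 ± 0.47 and 7.58 ± 0.73 (SD, n = 4 each), a difference of -1.77 (SE 0.34, 95% interval -2.52 to -1.01), or 3.4-fold lower, with a limma adjusted p = 0.13. Only 4 of the 21640 probe sets, itself included, had a difference as low. Without Sca1-HGAL replicate 3 the difference was -2.13 with a limma adjusted p = 0.00946. Over all fits with 1 array left out, the limma adjusted p ran from 0.00946 to 0.353.

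Ifi213 (probe set 10360373), a neighbour of Ifi214 in the cluster, varied most among the wild-type arrays. It was at 9.69, 10.35, 9.37 and 10.74 in wild-type and 8.30, 8.0, 9.16 and 8.94 in Sca1-HGAL cells. The groups were apart by 0.21. The difference of the means, 10.04 ± 0.62 and 8.60 ± 0.54 (SD, n = 4 each), was -1.44 (SE 0.32, 95% interval -2.16 to -0.72), 2.71-fold lower, at a limma adjusted p = 0.187.

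Ifi208 (probe set 10351880), through which the family was chosen, had levels of 9.61, 9.67, 9.20 and 9.71 in wild-type and 8.24, 7.92, 8.61 and 8.59 in Sca1-HGAL cells. This was the widest gap between the groups among the members, 0.59. The means were 9.55 ± 0.23 and 8.34 ± 0.33 (SD, n = 4 each), a difference of -1.20 (SE 0.16, 95% interval -1.57 to -0.84), 2.3-fold lower, at a limma adjusted p = 0.0983. That value was under 0.05 without Sca1-HGAL replicate 3 (0.0275) and with arrays weighted by quality (0.0488), both from limma. Over all fits with 1 array left out, the limma adjusted p ran from 0.0275 to 0.235.

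Ifi209 (probe set 10351873), also known as Pyhin1, gave 11.65, 11.65, 11.38 and 11.85 in wild-type and 10.66, 10.56, 11.24 and 10.88 in Sca1-HGAL cells. The groups were apart by 0.15. Its means were 11.64 ± 0.19 and 10.83 ± 0.30 (SD, n = 4 each), a difference of -0.80 (SE 0.15, 95% interval -1.13 to -0.48), 1.74-fold lower, with a limma adjusted p = 0.122. Without Sca1-HGAL replicate 3 the difference was -0.94 and the limma adjusted p = 0.0257. Over all fits with 1 array left out, the limma adjusted p ran from 0.0257 to 0.318.

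Ifi203 (probe set 10360391), which lies between Ifi207 and Ifi202b among the measured genes, gave 12.58, 12.49, 12.20 and 12.52 in wild-type and 11.73, 11.73, 12.22 and 11.93 in Sca1-HGAL cells. Only the replicates numbered 3 overlapped, by 0.03. The difference of the means, 12.45 ± 0.17 and 11.90 ± 0.23 (SD, n = 4 each), was -0.54 (SE 0.12, 95% interval -0.82 to -0.27), 1.46-fold lower, with a limma adjusted p = 0.189.

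Ifi207 (probe set 10360377), which lies beside Ifi208 on the chromosome, went the other way. Its levels were 6.75, 7.55, 7.67 and 6.95 in wild-type and 8.5, 7.61, 7.54 and 8.40 in Sca1-HGAL cells, with Sca1-HGAL replicates 1 and 4 above all wild-type arrays and replicates 2 and 3 among them. The means were 7.23 ± 0.45 and 8.01 ± 0.51 (SD, n = 4 each), a difference of 0.78 (SE 0.27, 95% interval 0.18 to 1.38), 1.72-fold higher, with a limma adjusted p = 0.392.

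Aim2 (probe set 10351867), the DNA sensor of the inflammasome, was at 10.78, 10.79, 10.57 and 10.66 in wild-type and 10.78, 10.85, 10.86 and 10.85 in Sca1-HGAL cells. The groups overlapped. The difference of the means, 10.70 ± 0.11 and 10.84 ± 0.04 (SD, n = 4 each), was 0.14 (SE 0.07) with a limma adjusted p = 0.55, and its 95% interval, -0.01 to 0.29, holds no difference of the size of those of Ifi206, Ifi213, Ifi208, Ifi209 or Ifi203.

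Ifi202b (probe set 10360398), a member without a pyrin domain, was dim in both groups. It read 4.47, 4.17, 4.98 and 4.59 in wild-type and 4.86, 4.97, 4.76 and 5.0 in Sca1-HGAL cells, under a log2 of 6 on every array. The groups overlapped, and the difference was 0.34 (SE 0.15, 95% interval 0.02 to 0.67), with a limma adjusted p = 0.502. Without the 2 wild-type arrays with high Xist it was 0.17.

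Of the other family genes, Ifi214 and Ifi205 had a probe set of their own, and neither lay lower in Sca1-HGAL cells. Ifi214, between Ifi206 and Ifi213 in gene order, was at 10.15, 10.71, 10.83 and 11.12 in wild-type and 10.90, 10.36, 10.60 and 10.93 in Sca1-HGAL cells, a difference of -0.01 (SE 0.20, 95% interval -0.44 to 0.43). Ifi205, at the far end past Ifi202b, was at 6.14 to 6.73 in wild-type and 5.97 to 6.81 in Sca1-HGAL cells, a difference of -0.01 (SE 0.20, 95% interval -0.45 to 0.43). The limma adjusted p was 0.997 for Ifi214 and 0.995 for Ifi205.

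**Figure D2:**
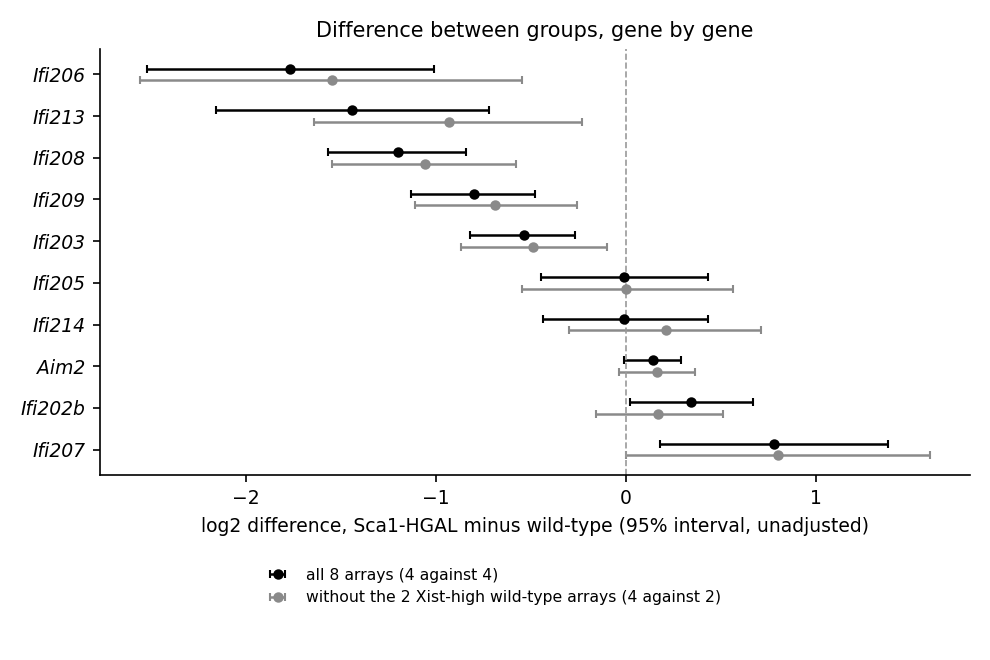
Log2 difference, Sca1-HGAL minus wild-type, with its unadjusted 95% interval for the 8 measured members and for Ifi205 and Ifi214, on all 8 arrays (black) and without the 2 wild-type arrays with high Xist (grey). Ifi206, at -1.77 and -1.55, lies farthest to the left in both, and the intervals of Ifi205, Ifi214 and Aim2 include 0 in both.

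Over the 8 measured members, 4 had groups that did not overlap with Sca1-HGAL lower, where 2.3% of all probe sets did, and 0 with Sca1-HGAL higher, where 3.15% did. At an unadjusted p under 0.05 in limma, 5 members were lower and 2 higher, against 4.06% and 5.53% of all probe sets. The members' median difference was -0.67, against 0.01 over all probe sets. Since the family was chosen from this same contrast, nothing is read from these shares. The paralogs may also share probe signal where their transcripts are alike, and this was not tested, because probe sequences were not used here.

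Wild-type replicates 2 and 4 stood apart from the other 6 arrays by Xist, the RNA that coats the silenced X of female cells. Its level was 12.17 and 12.18 there and 5.28 to 5.65 elsewhere. The Y-linked Eif2s3y was at 4.22 and 3.96 there and at 10.21 to 10.61 elsewhere, and Kdm5d and Uty differed likewise. The labels give no sex, and no Sca1-HGAL array had high Xist. Among wild-type arrays, the mean of the Xist-high pair against that of the other pair was 10.54 against 9.53 for Ifi213. It was 9.56 against 9.13 for Ifi206, 9.69 against 9.40 for Ifi208, 11.75 against 11.52 for Ifi209 and 12.51 against 12.39 for Ifi203. Thus all 5 members with a negative difference were higher on the Xist-high pair, Ifi213 by the most. This was not particular to them. Aim2 (10.72 against 10.67) and Ifi207 (7.25 against 7.21) were higher there too, and Ifi202b was lower (4.38 against 4.72). Outside the members, Ifi214 was at 10.91 against 10.49 and Ifi205 at 6.43 against 6.40. For Ifi203, wild-type replicate 1, not of the Xist-high pair, was the highest wild-type array, at 12.58.

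Without these 2 arrays, which leaves 2 wild-type arrays, the difference was -1.55 (SE 0.44) for Ifi206, -1.06 (SE 0.21) for Ifi208, -0.69 (SE 0.18) for Ifi209 and -0.49 (SE 0.17) for Ifi203. Ifi213 came down by more than the others, to -0.93 (SE 0.30). Ifi207 stayed at 0.80 (SE 0.34) and Aim2 at 0.16 (SE 0.09). The limma adjusted p values ran from 0.454 for Ifi208 to 0.792 for Ifi202b. The same 4 members did not overlap with Sca1-HGAL lower, where 6.6% of all probe sets did, and Aim2 did not overlap with Sca1-HGAL higher, where 11.1% did.

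The replicates numbered 3 ran against the contrast in each of the 5 members with a negative difference. Wild-type replicate 3 was the lowest wild-type array and Sca1-HGAL replicate 3 the highest Sca1-HGAL array in 5 of 5. Over all probe sets both held at once in 8.93%, and among the 498 probe sets whose groups did not overlap with Sca1-HGAL lower, in 11.0%. Aim2, whose difference was positive, had the same order, with 10.57 on wild-type replicate 3 and 10.86 on Sca1-HGAL replicate 3. Ifi207 and Ifi202b had the reverse order, with wild-type replicate 3 their highest wild-type array and Sca1-HGAL replicate 3 their lowest Sca1-HGAL array. For marker lists of some other cell types, too, wild-type replicate 3 was highest and Sca1-HGAL replicate 3 lowest in its group. Mean log2 levels there were 7.94 and 7.13 for T cells, 7.05 and 6.05 for NK cells, and 6.82 and 6.34 for neutrophils. They were 9.36 and 8.32 for plasmacytoid dendritic cells, and 7.02 and 6.71 for dendritic cells. The B cell, macrophage and monocyte, and erythroid lists did not follow this. The part of these cells in the pattern was not tested.

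**Figure D3:**
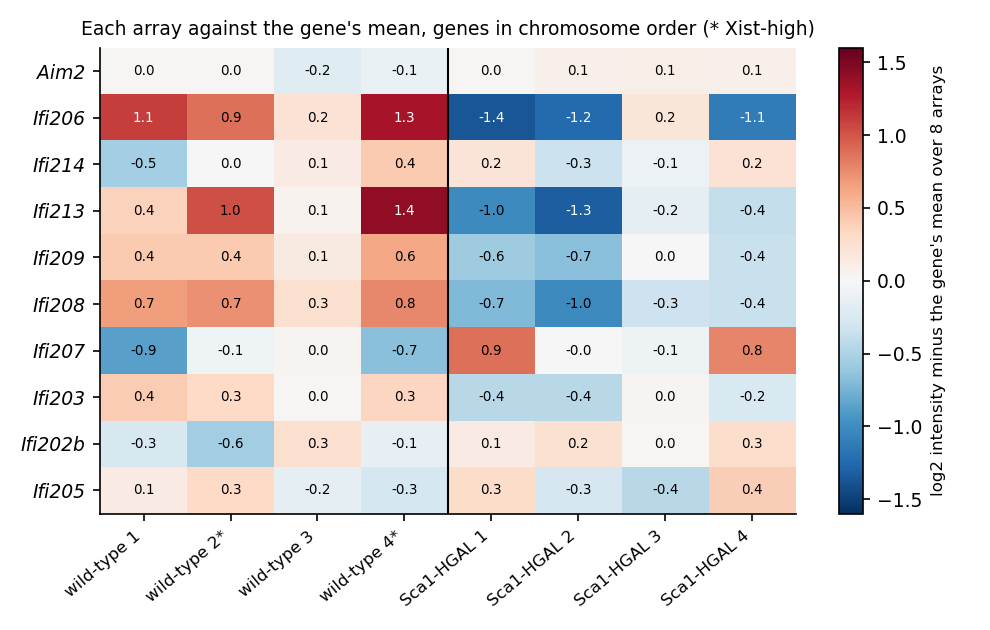
Log2 intensity on each array minus the gene's mean over 8 arrays (colour and printed value), genes in chromosome order and arrays by group; a star marks the wild-type arrays with high Xist. In Ifi206, Ifi213, Ifi209, Ifi208 and Ifi203 the replicate 3 columns of both groups lie nearest each other, and the Ifi207 row has the opposite colours on replicates 1 and 4.

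With each group's mean subtracted, so that the difference between groups plays no part, the 5 members with a negative difference varied together over the 8 arrays. Pearson's r over their 10 pairs ran from 0.71 to 0.95 with a median of 0.88, and Spearman's rho from 0.64 to 0.98. Without the 2 arrays farthest from the median of the first gene of a pair, r ran from 0.51 to 0.95. Ifi207 had an r of -0.69 to -0.12 with these 5, Ifi202b -0.58 to -0.45, Aim2 0.30 to 0.61, Ifi214 -0.18 to 0.47 and Ifi205 -0.48 to 0.20. These are descriptions over arrays that share 1 normalisation.

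By the same measure, the genes outside the family most like Ifi208 were Snord49b (r = 0.98), Kif6 (0.97), Snhg15 (0.97), Snord15a (0.97) and Cept1 (0.96), none on chromosome 1. Of 19929 genes, 72 had an r above 0.9. The genes most like Ifi203, the member with the highest mean level, were Ttyh2, C9orf72 and Dennd6a (0.99 each) and Tgfbr1 and Svs2 (0.98 each), and 148 genes had an r above 0.9.

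No gene of the inflammasome list, which also takes in sensors other than Aim2, passed the threshold either. Of 11 measured inflammasome genes, 7 had a positive difference, with 4 higher and 0 lower at an unadjusted p under 0.05, where 5.53% and 4.06% of all probe sets were, and a median of 0.11. Some myeloid markers had positive differences beside them. Adgre1, a macrophage marker, had 1.01 without overlap, while 4 of the 8 macrophage and monocyte markers had a negative difference (median -0.01). All 6 neutrophil markers had a positive difference, and 3 were higher at an unadjusted p under 0.05. The part of myeloid cells in the inflammasome values was not tested. Casp1, which cleaves the precursors of interleukin-1β and interleukin-18, was at 8.65 to 9.05 in wild-type and 9.35 to 9.46 in Sca1-HGAL cells, without overlap. Its difference was 0.49 (SE 0.09, limma adjusted p = 0.119), and 0.58 without the Xist-high arrays. Il1b, the interleukin-1β gene, had 0.35 (SE 0.10), Casp4, the sensor of cytosolic lipopolysaccharide, 0.25 (SE 0.10) and Nlrc4, an inflammasome scaffold, 0.22 (SE 0.09), with limma adjusted p values of 0.295, 0.483 and 0.498. Casp8 had -0.12 (SE 0.05). Pycard, the adaptor of Aim2, had 0.06 (SE 0.13), Gsdmd 0.11 (SE 0.07) and Il18 -0.12 (SE 0.12), each with groups that overlapped.

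Of 17 genes of nucleic acid sensing, 2 were lower and 1 higher at an unadjusted p under 0.05. Over all probe sets 4.06% were lower and 5.53% higher. The list had a median of -0.09 and 0 adjusted calls in limma. Without the Xist-high arrays 0 were lower and 1 higher, with a median of 0.02 and no share of all probe sets taken for that fit. Ddx41, a helicase placed upstream of Sting1, had a difference of -0.21 (SE 0.06) and Sting1, the adaptor through which cytosolic DNA leads to interferon, -0.23 (SE 0.10), and -0.10 without the Xist-high arrays. Tlr9, the endosomal receptor of unmethylated DNA, was at 11.57 to 11.63 in wild-type and 11.72 to 11.98 in Sca1-HGAL cells, a difference of 0.23 (SE 0.07, limma adjusted p = 0.315). Samhd1, which degrades deoxynucleotides, had -0.16 (SE 0.08), and Unc93b1, which carries Toll-like receptors to endosomes, -0.00 (SE 0.07).

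Of 12 measured interferon receptors and transducers, 2 were lower and 1 higher at an unadjusted p under 0.05, with a median of -0.06, against 4.06% lower and 5.53% higher among all probe sets. Without the Xist-high arrays 0 were lower and 2 higher, with no share of all probe sets taken for that fit. Socs3, a feedback inhibitor of cytokine receptors, was at 8.14 to 8.19 in wild-type and 8.43 to 8.64 in Sca1-HGAL cells, 0.37 higher (SE 0.06, limma adjusted p = 0.111). These values are from the brighter of its 2 probe sets, and the other is not given. Usp18, which removes ISG15 and damps the interferon receptor, had -0.74 (SE 0.28, limma adjusted p = 0.45) and -0.26 without the Xist-high arrays. Stat2 had -0.24 (SE 0.09) and -0.12 without them, while Jak1 had -0.01 and Ifngr2 -0.11. Of 7 interferon regulatory factors, 1 was lower at an unadjusted p under 0.05 and none higher, with a median of -0.10. Irf7, the factor that amplifies interferon production, had -0.41 (SE 0.17), and -0.12 without the Xist-high arrays. Irf5 had -0.09, Irf2 -0.10 and Irf8 0.04.

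The interferon-stimulated effectors are the genes that interferon turns on against viruses, and the Xist-high arrays held their highest levels. Of 31 measured, 28 had a negative difference and 10 were lower and 0 higher at an unadjusted p under 0.05, against 4.06% and 5.53% of all probe sets, with a median of -0.30. The median was -0.18 without wild-type replicate 4 alone. On the other 6 arrays their median was -0.06, with 1 lower and 2 higher. No share of all probe sets was taken for that fit, which has fewer wild-type arrays, so its counts cannot be set against those above. The mean log2 level of the list was 8.54, 9.04, 8.67 and 9.37 on wild-type arrays 1 to 4 and 8.73, 8.48, 8.43 and 8.69 on Sca1-HGAL arrays 1 to 4, so that only wild-type replicates 2 and 4 lay above all Sca1-HGAL arrays. Over the Ifi200 members the median was -0.67 with and -0.59 without those arrays; the difference between the lists was not tested.

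Mx2, a dynamin-like antiviral GTPase, had a difference of -0.66 (SE 0.13, limma adjusted p = 0.142) and no overlap, at 6.48 to 7.16 in wild-type and 6.18 to 6.25 in Sca1-HGAL cells. Without the Xist-high arrays it had -0.40. Rtp4 had -0.74 (SE 0.25) and -0.25 without them, and Oasl1, of the oligoadenylate synthetase family, -0.64 (SE 0.18) and -0.34. Ly6e had -0.42 (SE 0.35) and Trim30a -0.24 (SE 0.10), and -0.09 without the Xist-high arrays. The median of the 12 measured interferon-gamma targets was 0.13. At an unadjusted p under 0.05, 2 were higher and 0 lower, against 5.53% and 4.06% of all probe sets. The 2 were Cxcl10, a chemokine, at 0.25 (SE 0.10), and Ciita, the master regulator of MHC class II genes, at 0.14 (SE 0.06). Nlrc5 had 0.22 on the brightest of its 19 probe sets, the others not being given, and Tap1 0.19. Over all 89 measured genes of the 6 lists, 15 were lower and 8 higher at an unadjusted p under 0.05. Of all probe sets, 4.06% and 5.53% were. Without the Xist-high arrays 1 was lower and 10 higher. The share of all probe sets was not taken for that fit, so these counts cannot be set against it. None of the 89 passed the adjusted threshold.

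**Figure D4:**
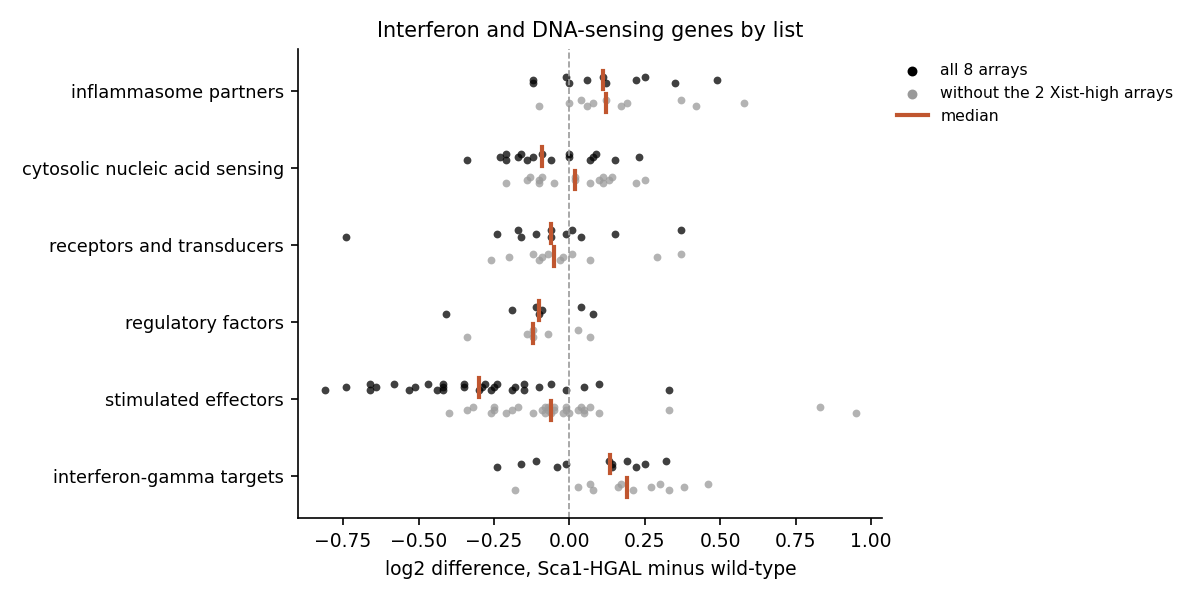
Log2 difference, Sca1-HGAL minus wild-type, of each measured gene (points) in 6 lists of DNA-sensing and interferon genes, with the list's median (orange bar), on all 8 arrays (black) and without the 2 wild-type arrays with high Xist (grey). The median of the stimulated effectors goes from -0.30 to -0.06, and that of the inflammasome partners from 0.11 to 0.12.

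The members lie in 1 stretch of chromosome 1, in the order Aim2, Ifi206, Ifi214, Ifi213, Ifi209, Ifi208, Ifi207, Ifi203, Ifi202b and Ifi205 for the measured family genes. So the 3 genes with near-identical start regions are not next to each other. Ifi214, which did not lie lower, stands between Ifi206 and Ifi213, and Ifi207, with its positive difference, follows Ifi208. The 15 measured genes on each side, Ifi205 among them, with Ifi214 between, had a median difference of 0.03. At an unadjusted p under 0.05, 0 were lower and 1 higher, against 4.06% and 5.53% of all probe sets. Many of these genes are olfactory receptor genes, and 12 of the 31 had a mean log2 level under 6. Olfr432 had 0.30 (SE 0.11), Olfr421-ps1 0.11, Ackr1, a chemokine-binding receptor of red cells and vessels, -0.13 and Dusp23, a phosphatase, 0.01.

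Because so many of these were dim, the nearest 15 genes on each side with a mean log2 of at least 8 were added after the data had been seen. Of these 31, again with Ifi214, 9 were lower and 3 higher at an unadjusted p under 0.05, and 7 did not overlap with Sca1-HGAL lower. Over all probe sets the shares were 4.06%, 5.53% and 2.3%. Without the Xist-high arrays 5 of the 31 were lower and 0 higher, with no share of all probe sets taken for that fit. Their median was -0.09 in both. Kmo, an enzyme of tryptophan breakdown, had -0.54 (SE 0.10) and Slamf1, a receptor of the SLAM family on lymphocytes, -0.52 (SE 0.10), each with a limma adjusted p = 0.122. Slamf7 had -0.64 (SE 0.14, limma adjusted p = 0.163), Hnrnpu -0.09 and Copa -0.07. Ifi206, Ifi213, Ifi208 and Ifi209 had larger differences than any of these neighbours.

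**Figure D5:**
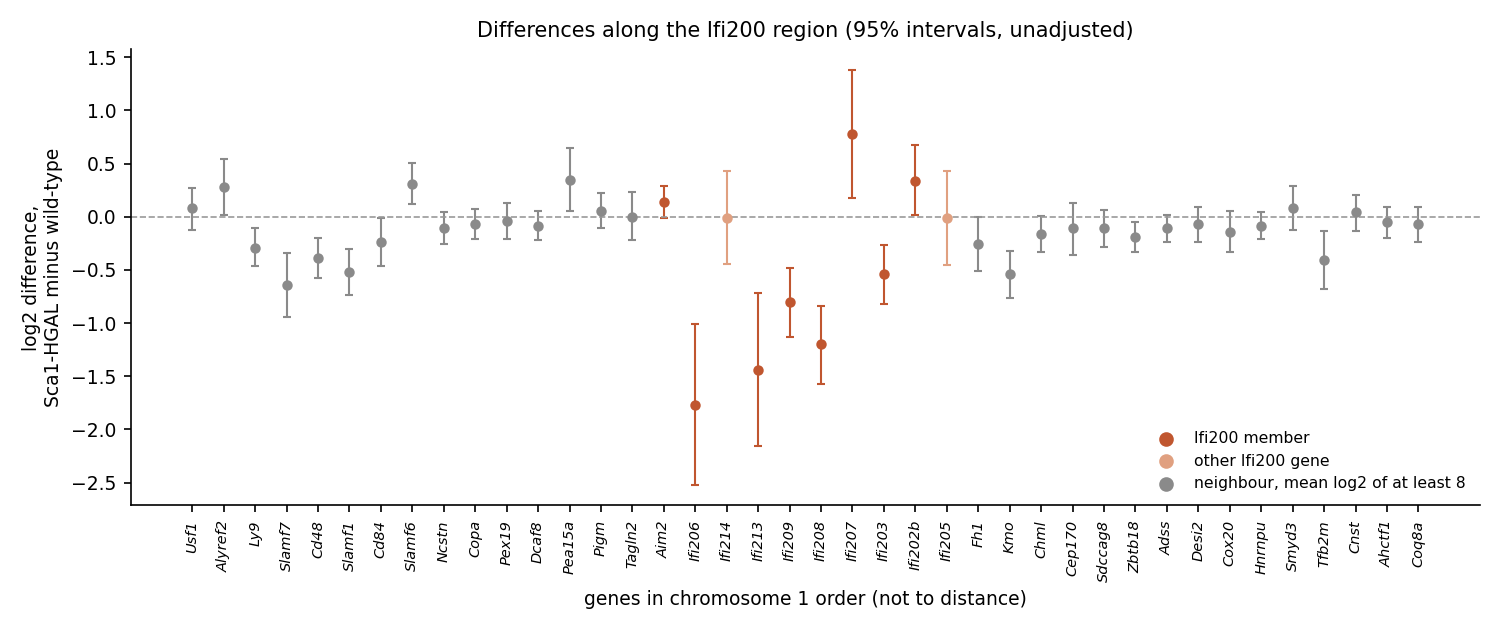
Log2 difference, Sca1-HGAL minus wild-type, with its unadjusted 95% interval, for the measured Ifi200 genes (orange; Ifi205 and Ifi214 paler) and the 15 nearest genes on each side with a mean log2 of at least 8 (grey), in chromosome order and not to distance. Within the cluster the values run from -1.77 for Ifi206 to 0.78 for Ifi207, and the largest negative value among the neighbours is -0.64 for Slamf7.

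The sorted cells carried their B cell markers, with means of 12.66 and 12.70 for Cd22 and 13.21 and 13.11 for Ms4a1 in wild-type and Sca1-HGAL cells. The summed intensity of the 7 measured B cell markers was 57400 to 58600 in wild-type and 55200 to 56200 in Sca1-HGAL arrays, so lower on every Sca1-HGAL array. Of the 7, 6 had a negative difference, where 43.9% of all probe sets did, and their median was -0.06. At an unadjusted p under 0.05 in limma, 0 of 7 were called. Over all probe sets 4.06% were lower and 5.53% higher at that threshold. The 6 neutrophil markers, 461 to 769 in wild-type and 525 to 1400 in Sca1-HGAL arrays in sum, were all higher in the mean, with a median difference of 0.43 and 3 of 6 higher at an unadjusted p under 0.05 (Elane, Mmp9 and S100a8). The 5 plasmacytoid dendritic cell markers, from a cell that also bears B220, summed to 3200 to 6440 and 3110 to 6220, with a median of -0.53. Siglech (-0.68) and Ccr9 (-0.83) lay lower on every Sca1-HGAL array, and were the 2 of 5 lower at an unadjusted p under 0.05. Ly6d (-0.53), Bst2 (-0.06) and Tcf4 (0.22) overlapped. Wild-type replicate 3 was highest for Siglech, at 8.61 with the other wild-type arrays at 7.58 to 7.95. It was also highest for Ccr9, at 7.67 with the others at 6.54 to 6.89. The 5 NK cell markers summed to 541 to 738 and 429 to 638, with a median of -0.46 and 1 of 5 lower. The sums were 1180 to 1690 and 917 to 2560 for 6 T cell markers, 1810 to 2530 and 1820 to 2740 for 8 macrophage and monocyte markers and 636 to 955 and 681 to 830 for 6 dendritic cell markers. Behind these sums, Adgre1 had 1.01 (SE 0.19, limma adjusted p = 0.122) and was the 1 macrophage and monocyte marker higher at an unadjusted p under 0.05. Of those 8 markers, 4 had a negative difference, and their median was -0.01. Of the dendritic cell markers 3 were higher, among them Itgax at 0.48 without overlap, and 2 lower, while 0 of 6 T cell markers were called either way. For 2 erythroid markers they were 789 to 4180 and 2520 to 3610. The markers given with their own differences were picked after their values were seen. No marker was at 0, since array intensities do not reach it, and the part of other cell types in the values of the Ifi200 members was not tested.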

How the data were processed

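The deposited intensities come from RMA run by the authors, per the submitters' processing notes. RMA removes background, brings arrays to 1 scale and sums up the probes of a set. It draws arrays to a common distribution and shrinks folds of dim probe sets. Its version and the build used for probe sets are not given in these sources. Values were linear (4.94 to 24302), the median intensity of an array was 145.2 to 151.4, and their log2 was used, with no pseudocount or filter.

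Of 34760 probe sets, the platform annotation gave 1 symbol to 21640 (19937 genes), several to 1321 and did not list 11799. Groups and replicate numbers came from the sample titles. The 21640 were tested in R 4.3.3 by limma 3.58.1 (lmFit and eBayes, without covariates, two-sided, p-values adjusted by Benjamini-Hochberg), a step checked on simulated data. No pair of arrays shared more than 0.060% of equal values. Symbols and gene order came from the RefSeq gene table of GRCm38.p6, in which 21553 probe sets matched by gene identifier and 0 symbols changed.

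The members and lists were chosen with earlier results of these data known. Every measured member is named, with the 3 genes of smallest p and the 2 of highest mean level in each list and among the neighbours, and the 5 genes most like Ifi208 and Ifi203. Pycard, Gsdmd and Il18 are given outside this rule. Predicted genes without a name were passed over. Xist and Y-linked genes were read as a check of the arrays.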

Additional observations from a re-analysis of the deposited data

Results flagged for a closer look

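In 122 groups of 4 arrays checked among the members and named genes, 5 had an array far from the other 3 by Dixon's test, and chance gives about 1 in 20, or 6.1. Ifi206 on Sca1-HGAL replicate 3 was at 8.66, against 7.09 to 7.35 on the rest of that group. Aim2 on Sca1-HGAL replicate 1 was at 10.78, with the others at 10.85 to 10.86. Rtp4 on Sca1-HGAL replicate 4 was at 7.98, with the others at 7.54 to 7.58. Nlrc5 on wild-type replicate 1 was at 10.43, with the others at 10.67 to 10.71. Ackr1 on wild-type replicate 4 was at 6.23, with the others at 5.91 to 5.95.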

How the results depend on the processing

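No measured member changed direction in any alternative tried. The 5 members with a negative difference kept an unadjusted p under 0.05 in limma in all 18 alternatives, and the members' median stayed between -0.80 and -0.59. The count of members at an adjusted p under 0.05 was 1 with array quality weights, Ifi208, where 12 probe sets in all were called. It ran from 0 to 3 when 1 array was left out, and it was 3 (Ifi206, Ifi208 and Ifi209) without Sca1-HGAL replicate 3, where 40 probe sets were called, 14 lower and 26 higher. The count of members higher at an unadjusted p under 0.05, 2 in the report, was 1 with median centring, with probe sets of a mean log2 of at least 6 only (which leaves out Ifi202b), with all probe sets of the table, without the Xist-high arrays and with the Xist-high state as a covariate, and 1 to 2 when 1 array was left out. It was 3 with a further quantile normalisation. Pathway genes lower at an unadjusted p under 0.05, 15 in the report, numbered 1 without the Xist-high arrays, 2 with that state as a covariate and 6 to 29 when 1 array was left out: 6 without wild-type replicate 2 or 4, 9 without Sca1-HGAL replicate 2, 23 without wild-type replicate 3 and 29 without wild-type replicate 1. Pathway genes higher, 8 in the report, numbered 5 with median centring and 5 to 9 when 1 array was left out, the 5 without wild-type replicate 3 or Sca1-HGAL replicate 2. For these counts at an unadjusted p under 0.05, the share of all probe sets was not taken in the alternatives. The neighbours' median of 0.03 was -0.09 over the nearest genes with a mean log2 of at least 8. Averaging the probe sets of a gene changes nothing for the members, as each measured member has 1.

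Whether the replicate numbers pair the arrays is not known. The deviations of same-numbered arrays from their group means had correlations of -0.16, 0.0529, -0.134 and -0.0103, which cannot settle it. With the replicate block, 0 members passed an adjusted p under 0.05 in limma, 5 were lower and 1 higher at an unadjusted p under 0.05, and 6 probe sets in all were called. The limma adjusted p with the block was 0.184 for Ifi208, 0.289 for Ifi209, 0.303 for Ifi213, 0.32 for Ifi206 and 0.387 for Ifi203.

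With 4 arrays a group and 2 Xist-high arrays in the wild-type group alone, the data limit how finely the members can be told apart, and the dim probe set of Ifi202b is read least firmly.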
